A study of Mus musculus with 4 samples.

Results

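The genes described here are 8 that encode ion channels and proteins of fluid and solute transport: Kcnk3, Trpv6, Slc12a2, Fxyd4, Atp1b1, Car2, Slc34a2 and Slc5a3. They are 8 of the 17896 genes in the 4 deposited tables, and each of the 4 tables lists all of them. They were chosen because their level in at least 1 cell class differed between te2 and sham mice, so those differences are given as a description and without a test. The data are single-cell RNA counts from the ventral prostate of wild-type C57BL6j mice, 2 labelled sham and 2 labelled te2. Pellets had been implanted 2 weeks before harvest, and each library holds the paired lobes of 1 animal. The labels place the series in an imbalance of steroid hormones, but the sources used here do not spell out te2 or what the sham pellet held.

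The secretory epithelium of the prostate makes its fluid by moving ions, and water follows. The sodium-potassium pump, of which Atp1b1 is a beta subunit and FXYD proteins such as Fxyd4 are regulators, keeps the gradient on which other carriers depend. Slc12a2 (NKCC1) brings sodium, potassium and chloride into the cell across the basolateral membrane, potassium leaks out through channels such as Kcnk3 (TASK-1), and Trpv6 lets calcium in. Car2 is a cytosolic carbonic anhydrase that makes bicarbonate and protons, Slc34a2 (NaPi-IIb) carries phosphate with sodium, and Slc5a3 (SMIT1) carries myo-inositol, an osmolyte.

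The upstream sequences of Trpv6 and Fxyd4 are shown because these genes stood in opposite directions in luminal cells. Both are the 250 bases before the gene's start in RefSeq, build GRCm38.p6, printed 5′ to 3′ on the gene's own strand, which is the minus strand for each. That is an earlier build than the authors' GRCm39, and the letters belong to RefSeq and not to these mice. Capitals mark matches on either strand to AGAACA or AGGTCA, words that resemble half-sites of nuclear receptors. The Trpv6 window is chr6:41636406-41636655 and the Fxyd4 window is chr6:117937336-117937585.
Trpv6: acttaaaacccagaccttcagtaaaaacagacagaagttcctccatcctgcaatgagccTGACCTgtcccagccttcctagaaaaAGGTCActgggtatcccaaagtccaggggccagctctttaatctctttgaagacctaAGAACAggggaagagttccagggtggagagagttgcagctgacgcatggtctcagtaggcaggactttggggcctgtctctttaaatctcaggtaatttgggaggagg
Fxyd4: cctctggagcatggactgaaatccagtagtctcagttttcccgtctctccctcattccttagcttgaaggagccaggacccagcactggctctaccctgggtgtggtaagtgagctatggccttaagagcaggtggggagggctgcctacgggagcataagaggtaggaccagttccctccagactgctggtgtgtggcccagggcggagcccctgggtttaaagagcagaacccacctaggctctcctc
The Trpv6 window holds 3 matches, 1 to AGAACA and 2 to AGGTCA, and the Fxyd4 window holds 0. Of 32851 such windows, 16.1% hold AGAACA and 14.0% hold AGGTCA, so each word alone is common. A match describes letters and not a bound site. The table matched 5 of the 8 genes, and the windows of Atp1b1, Slc34a2 and Slc5a3 hold 0 matches.

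Of 11245 barcodes, 8091 had at least 500 UMIs (unique molecular identifiers, which count transcripts) and at most 20% mitochondrial counts: 1638 and 2017 in sham 1 and 2, 2324 and 2112 in te2 1 and 2. Cells went in order to luminal (Sbp and Spink1 at 10% of UMIs or more), basal (Krt5, Krt14 and Krt15, 0.2%), fibroblast (Col1a2, Col3a1 and Dcn, 0.3%), macrophage (C1qa, C1qb and C1qc, 0.3%) and proximal (Krt4, Wfdc2 and Cxcl17, 0.1%). In the order sham 1, sham 2, te2 1 and te2 2, which holds for every set of 4 values below, there were 1057, 1292, 392 and 485 luminal cells, 44, 160, 591 and 573 basal cells, and 35, 169, 636 and 376 proximal cells. Median depth was higher in te2 in all 5 classes, with 1551, 2455, 8265.5 and 10359 UMIs in luminal cells. Sbp and Spink1 made up 1.68% to 4.93% of the UMIs of the median sham cell of the other 4 classes and 0.122% to 0.517% in te2, so luminal RNA was more spread over other cells in the sham libraries. Of te2 basal cells, 42.5% and 54.1% met a later gate too, against 36.4% and 23.1% in sham. Most often this was the fibroblast gate, met by 36.4%, 19.4%, 25.0% and 42.6% of basal cells. The proximal gate was met by 0%, 4.4%, 18.1% and 13.4%. Sham 1 had 0 counts of Psca and Ly6d in its 35 proximal cells, 2 of the 9 proximal markers, and both sham libraries had 0 of Dsc3 in basal cells. Near the proximal cut, 7, 20, 68 and 45 proximal cells lay just above it and 6, 11, 60 and 51 cells of no class just below. Libraries shared at most 3 barcodes with each other.

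Levels are CPM, the summed counts of a class scaled to a common total with TMM factors, and errors are SDs over 2 libraries. In these 3′ counts a level compares a gene with itself, not with another gene. Sums over cells cannot tell fewer expressing cells from less RNA per cell. With 2 libraries against 2, a group that does not overlap the other is a weak mark: over all genes tested, 67.1% did not overlap in luminal cells, 54.9% in basal cells, 48.9% in fibroblasts, 53.6% in macrophages and 55.7% in proximal cells. Of the 8 genes, 7, 5, 2, 1 and 8 passed the filter on low counts in these classes, and 7, 4, 2, 1 and 6 of those did not overlap. Nothing is read from these counts, since the genes were chosen on this contrast.

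**Figure D1:**
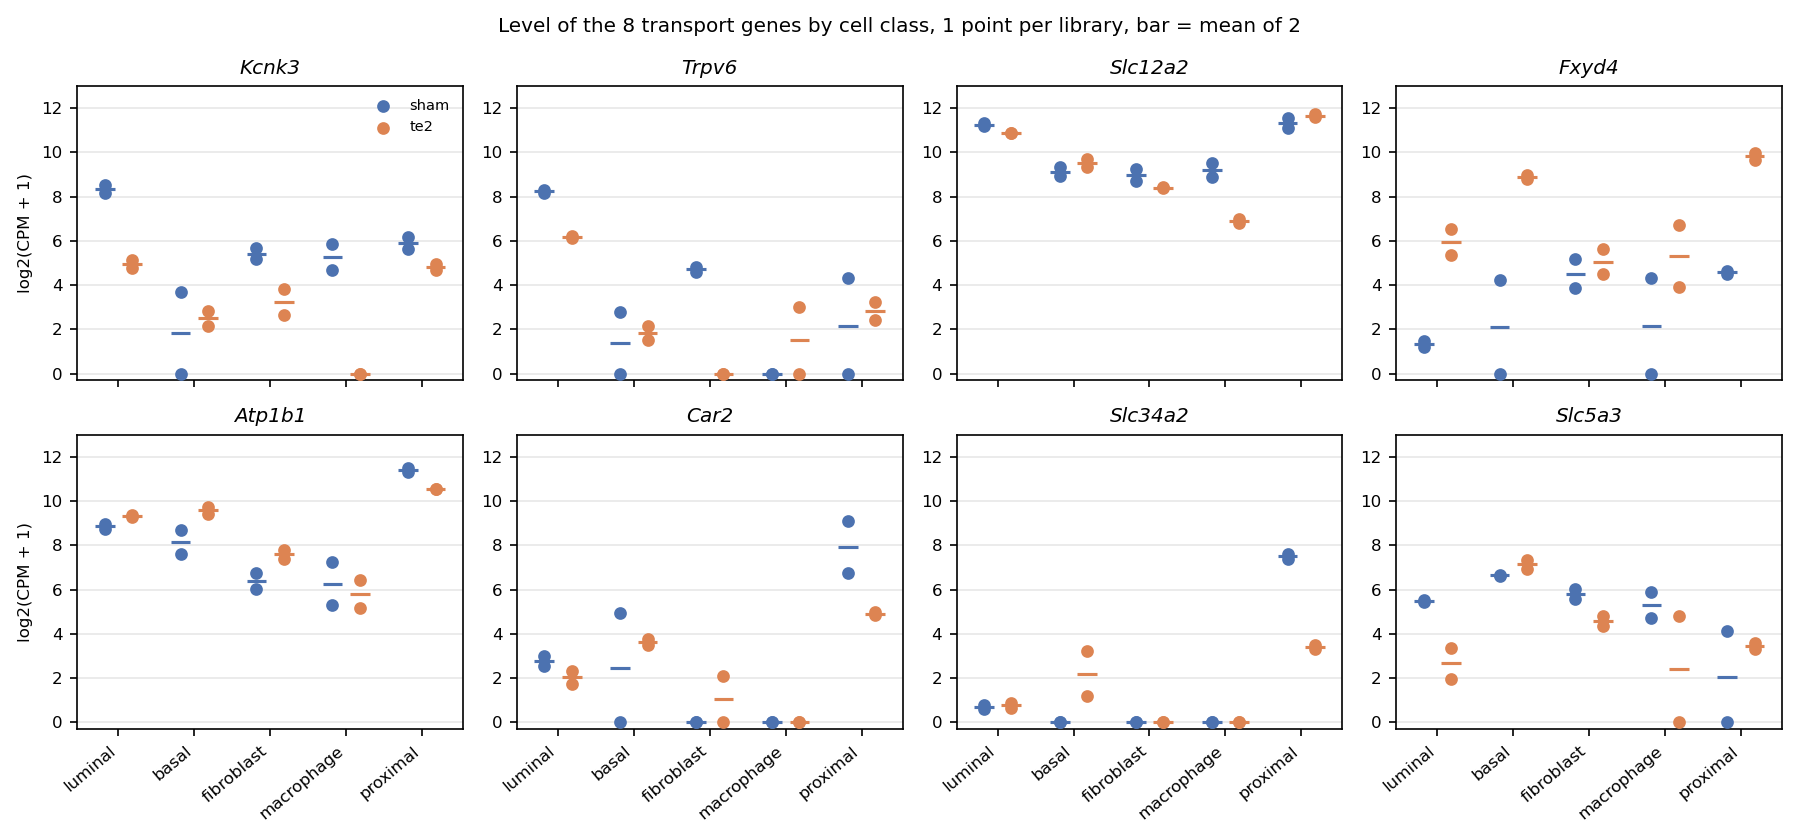
Level of each of the 8 genes as log2(CPM + 1) on the vertical axis by cell class, with 1 point per library (blue sham, orange te2) and a bar at the mean of 2. Kcnk3 and Trpv6 in luminal cells and Slc34a2 in proximal cells sit lower in both te2 libraries, and Fxyd4 sits higher in both in luminal, basal and proximal cells.

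The 2 channel genes were most abundant in luminal cells, and lower there in te2. Kcnk3, a potassium leak channel, stood at 373, 289, 34.6 and 26.6 CPM in luminal cells. Both sham libraries lay far above both te2 libraries, 10.8-fold by the means. Trpv6, an epithelial calcium channel, stood at 288, 317, 69.7 and 72.6 CPM, 4.25-fold lower in te2 by the means. Again the groups did not overlap, and the libraries within a group were close.

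In proximal cells Kcnk3 was lower in te2 as well, at 71.8, 49.4, 30.2 and 24.6 CPM, from 6, 18, 116 and 65 counts. Luminal RNA, judged from Sbp and Spink1, would bring 1.3, 7.9, 4.2 and 2.3 of those counts. Its part in the proximal Kcnk3 difference was not tested. Trpv6 had 0 counts in sham 1 proximal cells and 19.2, 4.43 and 8.32 CPM in the others, which overlap. In sham, Kcnk3 levels were ordered luminal, proximal, fibroblast, macrophage and basal (means of 331, 60.6, 42.6, 41.3 and 5.94 CPM), and the 3 in the middle overlapped. In te2 the luminal and proximal levels, 30.6 ± 5.65 and 27.4 ± 4.01 CPM, overlapped. In sham fibroblasts the 11 and 3 Kcnk3 counts compare with 9.3 and 3.7 that the luminal RNA present there would bring, judged from Sbp and Spink1. Te2 fibroblasts held 1 and 4 Kcnk3 counts. Trpv6 had 6 and 2 counts in sham fibroblasts, where luminal RNA would bring 7.2 and 4.0, and 0 in te2. Kcnk3 had 3 and 1 counts in sham macrophages, where luminal RNA would bring 2.2 in each, and 0 in te2. No fold is given for these, since the sham counts are near that background. In basal cells both channels had few counts, 2 and 15 of Kcnk3 and 1 and 8 of Trpv6 in sham and te2.

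At equal depth the channels were also found in fewer te2 luminal cells. With each cell thinned to 1500 UMIs and shallower cells left out (530, 876, 362 and 449 luminal cells remained), Kcnk3 was detected in 30.8%, 24.4%, 4.97% and 3.79% of them and Trpv6 in 34.0%, 33.9%, 11.6% and 8.46%. Unthinned, the Kcnk3 shares were 34.2%, 31.1%, 17.1% and 14.6%, with exact 95% intervals from 31.4 to 37.2% in sham 1 to 11.6 to 18.1% in te2 2. The unthinned Trpv6 shares, 34.2%, 43.3%, 36.0% and 39.2%, overlapped between the groups. In fibroblasts, which served as background, unthinned Kcnk3 shares were 4.22%, 3.06%, 1.16% and 2.27%, at median depths of 994, 954, 2375 and 2506.5 UMIs. These intervals cover counting error only.

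**Figure D2:**
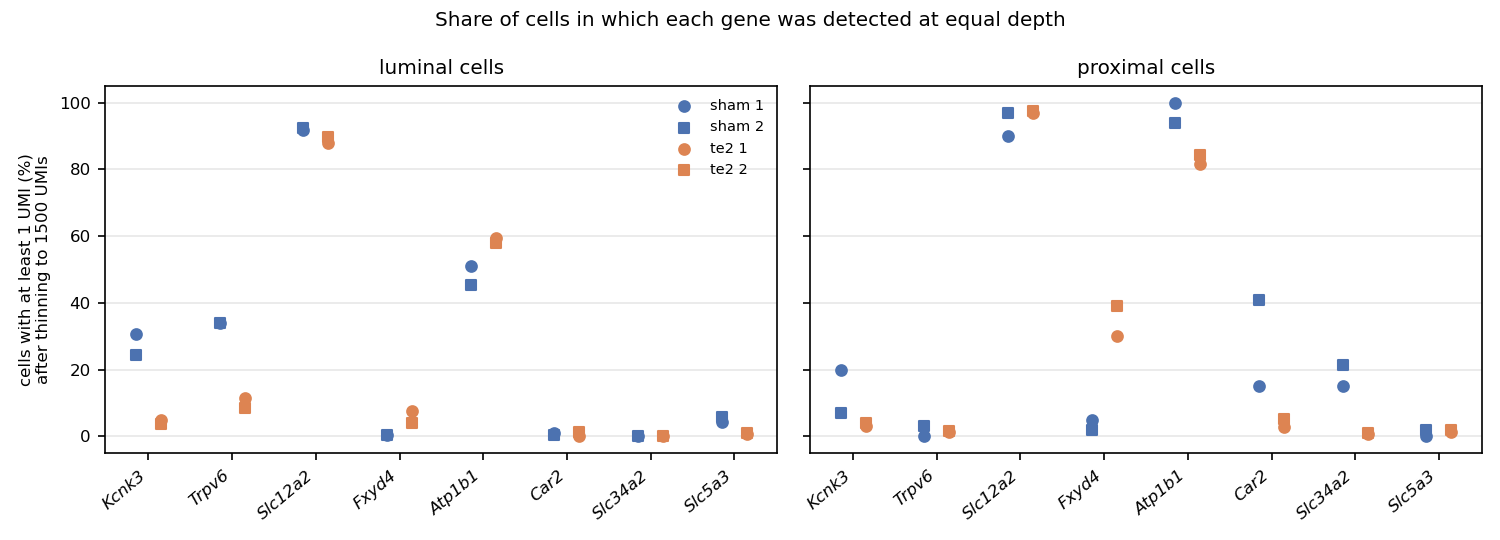
Percent of luminal (left) and proximal (right) cells with at least 1 UMI of each gene after thinning every cell to 1500 UMIs, 1 point per library (blue sham, orange te2; circle replicate 1, square replicate 2). In luminal cells Kcnk3 lay between 24.4% and 30.8% in sham and between 3.79% and 4.97% in te2, and in proximal cells Fxyd4 reached 30.0% and 39.1% in te2.

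Slc12a2, the sodium-potassium-chloride cotransporter, was abundant in luminal and proximal cells in both groups. In luminal cells it stood at 2545, 2337, 1902 and 1902 CPM. The te2 libraries lay below the sham libraries by a small margin, 1.28-fold. In proximal cells it stood at 2213, 3007, 3061 and 3354 CPM, where te2 lay above sham but te2 1 was close to sham 2. In macrophages it stood at 480.0, 724, 127 and 113 CPM from 54 sham and 44 te2 counts, and in fibroblasts at 421, 605, 348 and 329.7 CPM. The sham macrophage counts of 25 and 29 compare with 14.8 and 17.9 that luminal RNA would bring, and the te2 counts of 28 and 16 with 4.2 and 7.3. In fibroblasts the sham counts of 92 and 52 compare with 63.8 and 29.7, and the te2 counts of 65 and 101 with 6.5 and 11.4. The part of luminal RNA in these differences was not tested further.

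In basal cells the direction for Slc12a2 turned with the gate. All basal-gate cells gave 491, 642, 834 and 653 CPM, a log2 difference of 0.33. Without the basal cells that also met the proximal gate the difference was -1.17, and with cells of a single gate it was -0.78 (both settings were chosen after the data were seen). In te2 the 107 and 77 basal cells that met the proximal gate held Slc12a2 at 2104 and 2089.8 CPM, and the other 484 and 496 held 232 and 217. In sham, 0 and 7 basal cells met the proximal gate, and the rest stood at 552 and 517 CPM. Over all basal-gate cells, luminal RNA would bring 12.3 and 49.1 of the 25 and 108 sham Slc12a2 counts. In te2 it would bring 28.7 and 61.1 of 1205 and 1049. Its part in the basal differences was not tested. Basal cells with a UMI of Trp63, Col17a1 or Dsc3, which mark basal epithelium, held 190.3 and 204 CPM in te2, and those without held 1508 and 1435.

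**Figure D3:**
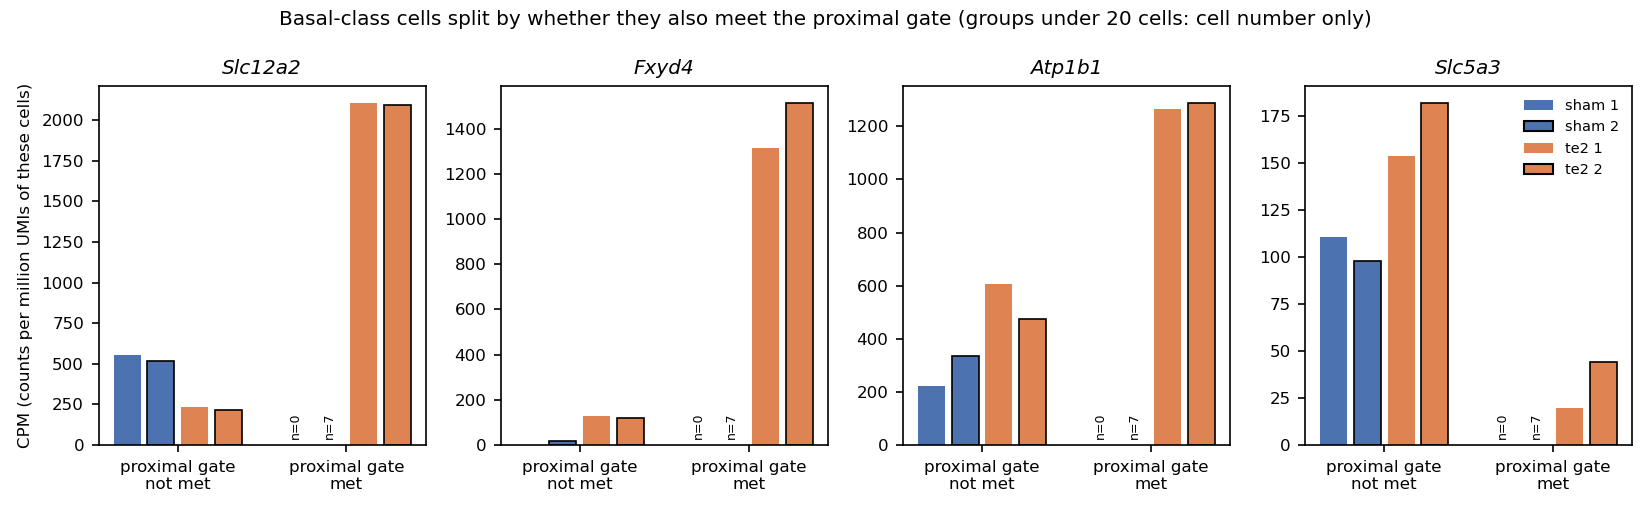
CPM by totals in basal-gate cells that did not meet (left in each panel) or met (right) the proximal gate, for Slc12a2, Fxyd4, Atp1b1 and Slc5a3, with 1 bar per library (blue sham, orange te2; outlined bars replicate 2) and the cell number in place of sets under 20 cells. Slc12a2, Fxyd4 and Atp1b1 are higher, and Slc5a3 lower, in the te2 cells that met it.

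Fxyd4, whose FXYD family tunes the pump, had few counts in sham epithelium and many in te2. In proximal cells it stood at 23.9, 21.9, 812 and 997 CPM, 39.4-fold higher in te2 by the means. In basal cells it stood at 0, 17.8, 508 and 441 CPM, from 3 sham counts and 1442 te2 counts, a ratio of 34.5 (exact 95% interval 11.8 to 168, counting error only). In luminal cells it stood at 1.75, 1.32, 92.1 and 40.6 CPM. Both te2 libraries lay above both sham libraries in these 3 classes. The te2 luminal values were apart from each other, and without te2 1 the log2 difference was 4.74 in place of 5.40. In fibroblasts 13.7, 34.9, 21.4 and 49.0 CPM overlapped, as did 19.2, 0, 104 and 14.1 in macrophages.

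Fxyd4 did not spread evenly within te2 classes. In te2 luminal cells with a Psca UMI (217 and 243 cells; Psca marks proximal epithelium) it stood at 145 and 60.8 CPM, and in those without at 17.1 and 16. Psca-positive cells were deeper, with medians of 9102 and 10860 against 7116 and 9304.5 UMIs, and 0 sham luminal cells had a Psca UMI. In te2 basal cells it stood at 1317 and 1514 CPM where the proximal gate was met and at 127 and 118 where it was not. With the latter cells alone, the log2 difference from sham was 3.20 in place of 5.11. Thinned to 1500 UMIs, 5%, 2.04%, 30.0% and 39.1% of proximal cells held Fxyd4, and unthinned 5.71%, 4.14%, 44.7% and 55.6%, against 1.27%, 3.06%, 4.65% and 9.09% of fibroblasts.

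Atp1b1, the pump's beta subunit, was higher in te2 luminal, basal and fibroblast cells and lower in te2 proximal cells. In proximal cells, where it was most abundant, it stood at 2847, 2571, 1500.5 and 1484 CPM. Both te2 libraries lay 1.82-fold below sham by the means. In luminal cells it stood at 503, 422, 669.5 and 612 CPM, in basal cells at 196, 416, 855 and 687, and in fibroblasts at 64.1, 105, 166 and 222. The groups did not overlap in any of these 4 classes. The basal log2 difference was 1.14 with sham 2 and larger, 2.06, without it. In macrophages 38.4, 149.8, 86.2 and 35.2 CPM overlapped.

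Car2 and Slc34a2 were genes of proximal cells, and lower there in te2. Slc34a2, the sodium-phosphate cotransporter, stood at 167, 195, 10.2 and 9.08 CPM, 18.8-fold lower in te2 by the means. These levels came from 14, 71, 39 and 24 counts, so counting error is large, most of all in sham 1. The sham values were close to each other, as were the te2 values. It had 0 counts in fibroblasts and macrophages of all 4 libraries, 4 and 6 counts in luminal cells of sham and te2, and 0 and 14 in basal cells. Car2, the carbonic anhydrase, stood at 108, 554, 27.4 and 30.6 CPM, from 9, 202, 105 and 81 counts. Sham 2 lay far above sham 1, and without it the log2 difference was -1.84 in place of -3.89. In luminal cells Car2 stood at 4.89, 6.88, 2.32 and 4.06 CPM, and in basal cells 0, 29.7, 10.4 and 12.5 CPM overlapped.

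At 1500 UMIs Car2 was detected in 15%, 40.8%, 2.71% and 5.22% of proximal cells, from 20 cells in sham 1, and Slc34a2 in 15%, 21.4%, 0.722% and 1.16%. Unthinned, Car2 was in 20%, 46.7%, 10.2% and 14.4% of proximal cells and in 0, 0, 0 and 1 fibroblasts. Unthinned Slc34a2 shares were 25.7%, 28.4%, 4.09% and 3.99%, with exact 95% intervals of 21.7 to 35.8% in sham 2 and 2.25 to 6.49% in te2 2. Proximal cells with a UMI of Smr2 or Smr2l, secretory transcripts found in te2 proximal cells and not in those of sham, held Car2 at 16.9 and 15.3 CPM in te2, and those without held 41.0 and 46.8. The te2 cells without Smr2 or Smr2l stood below the 122 and 519 CPM of sham, where 122 came from 9 counts in 35 cells. A split by at least 1 UMI depends on depth, and its part in the Car2 difference was not tested.

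Slc5a3, the inositol transporter, was most abundant in basal cells, at 98.2, 101, 122 and 162 CPM, and te2 was higher by 1.43-fold. Those basal levels came from 5, 17, 177 and 260 counts. In luminal cells it stood at 42.2, 45.8, 2.91 and 9.33 CPM, 7.19-fold lower in te2 by the means. Te2 2 lay above te2 1, and without te2 2 the log2 difference was -3.92 in place of -2.74. In fibroblasts it stood at 64.1, 46.6, 26.8 and 19.6 CPM from 18 and 11 counts. In proximal cells 0, 16.5, 8.87 and 11 CPM overlapped, as did 57.6, 25.0, 27.2 and 0 in macrophages. Within te2 basal cells it went against Fxyd4 and Slc12a2, at 153 and 182 CPM where the proximal gate was not met and at 19.9 and 44.1 where it was.

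The next comparison asked in which classes the genes were high, averaged over sham and te2, which is another contrast than the one that chose them. For Fxyd4 the average is not independent of that choice, since its counts came almost wholly from te2, so its calls are counted but nothing is read from them. Proximal Slc34a2 (means of 181 CPM in sham and 9.62 in te2), proximal Car2 (331 and 29.0) and luminal Kcnk3 (331 and 30.6) were far higher in sham. In te2 the proximal levels of Slc34a2 and Car2 still lay above the other classes, but luminal Kcnk3 overlapped proximal. A gene chosen for a change in a class must be measurable there, so the shares of members that passed are a description. Each class was set against the mean of the other 4 by edgeR's quasi-likelihood test with Benjamini-Hochberg adjustment over 8803 genes. In luminal cells 5 of the 8 passed, 4 higher and 1 lower, where 46.7% of all genes passed, 32% higher and 14.7% lower. Slc12a2 was higher by a log2 difference of 2.52 ± 0.10 (SE; adjusted p = 6.79e-32) and Atp1b1 by 1.64 ± 0.12 (9.26e-18). Kcnk3 (adjusted p = 8.15e-27) and Trpv6 (1.14e-34) were higher. The call for lower was that of Fxyd4, and it was lost without sham 1 or without sham 2.

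In proximal cells 7 of 8 passed, 6 higher and 1 lower, where 28.3% of all genes passed, 19.3% higher and 9.02% lower. Atp1b1 was higher by 3.11 ± 0.12 (adjusted p = 2.47e-31), Slc12a2 by 2.17 ± 0.10 (6.51e-27), and Car2 (1.68e-22), Slc34a2 (4.25e-14) and Kcnk3 (0.00231) were also higher. The remaining call for higher was that of Fxyd4. Its sham proximal level of 22.9 ± 1.40 CPM overlapped that of fibroblasts, 24.3 ± 15 (SD, n = 2 each), while in te2 the proximal level of 905 ± 131 CPM lay above all other classes. Slc5a3 was lower (adjusted p = 5.55e-05). Without sham 2 the Fxyd4 and Kcnk3 calls were lost (0.0543 for Kcnk3), and without te2 1 those of Kcnk3 (0.052) and Slc5a3 (1). Slc12a2 and Atp1b1 were thus called higher in both luminal and proximal cells. Kcnk3 was too, but its sham proximal level came from 6 and 18 counts and overlapped that of fibroblasts. Trpv6 passed in luminal cells, and Car2 and Slc34a2 in proximal cells.

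In basal cells 3 of the 8 passed, 2 higher and 1 lower, where 23.5% of all genes passed, 14.7% higher and 8.75% lower. Slc5a3 was higher by 2.29 ± 0.30 (adjusted p = 4.38e-09), Atp1b1 higher by 0.49 ± 0.17 (0.0232) and Slc12a2 lower by -0.69 ± 0.13 (1.88e-05). The basal Atp1b1 call was lost without sham 2 (0.943), te2 1 (0.0888) or te2 2 (0.0544), and without basal cells that met the proximal gate (0.43). In fibroblasts Slc12a2 (-1.49 ± 0.14) and Atp1b1 (-2.04 ± 0.22) were lower, 2 of the 8 and 0 higher, where 33.5% of all genes passed, 20.7% higher and 12.7% lower. In macrophages Slc12a2 (-2.52 ± 0.16), Atp1b1 (-3.20 ± 0.25) and Kcnk3 (adjusted p = 0.00529) were lower, 3 of the 8 and 0 higher, where 34.3% passed, 15% higher and 19.3% lower. The macrophage Kcnk3 call was lost without sham 2, te2 1 or te2 2 (adjusted p = 1, 0.0592 and 0.0519). Free luminal RNA in sham, given above, was not corrected for, and its part in these differences was not tested.

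Genes whose level over the 20 class-by-library sums was most like that of each member were found by Pearson's r among 8022 genes, as a description without a test. The sums share libraries and cell classes, so high values are common. Kcnk3 was most like Dnajc10, Irak1 and Tram1 (r = 0.90, 0.88 and 0.85), and Trpv6 like Bhlha15, Crabp1 and Cntnap2 (0.84, 0.82 and 0.81). Slc12a2 was most like Amd2, Liph and Gstt3 (0.95 for each), Atp1b1 like Limk2, Epcam and Fam3d (0.96, 0.95 and 0.94), and Fxyd4 like Dnaja2, Prdx2 and Eif3k (0.91, 0.89 and 0.87). Car2 was most like the uroplakin gene Upk1b, Foxq1 and the keratin gene Krt4, a gate gene (0.94, 0.92 and 0.92). Slc34a2 was most like Car2, Barx2 and Uqcr10 (0.87, 0.84 and 0.84), and Slc5a3 like Lrig2, Cuedc1 and Septin10 (0.85, 0.81 and 0.79).

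The other transport genes were then counted, from a list of 205 in 8 roles that leaves out the 8 members, tested for te2 against sham in each class. In luminal cells 29 of the 106 measured rose and 15 fell, 27.4% and 14.2%, beside 18% and 14.1% of all 10976 genes. The median log2 difference of the list was 0.10, and that of all genes was -0.01. Proton and bicarbonate genes held 10 of those that rose, out of 30 measured, with 4 lower, and sodium channels and aquaporins 4 of 6, with 1 lower. The numbers varied with the processing: DESeq2 called 28, and leaving out a library gave 32 to 45.

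The 9 proximal markers also stood higher in te2 luminal cells, at a sum of 305, 323, 2366 and 2442 CPM by totals, with Psca at 0 in both sham libraries. Their part in the luminal calls was not tested. The 6 genes named below as higher were each more abundant in both sham proximal samples than in both sham luminal samples. For example, Aqp5 stood at 191 and 96 CPM and Ano1 at 203 and 134 in sham proximal cells. Of the genes named below as lower, Itpr1 and Lrrc8a shared this trait. Itpr1 stood at 95.7 and 123 CPM in sham proximal cells and at 51.7 and 62.2 in sham luminal cells. Prss8 and Orai1 overlapped between these classes in sham, and Slc9a2 and Stim2 were less abundant in sham proximal cells. Luminal genes that rose were Aqp5, a water channel (7.68, 16.1, 72.1 and 50.1 CPM; log2 difference 2.29 ± 0.26, adjusted p = 2.3e-05), and Atp6ap2, an accessory protein of the proton pump (32.8, 29.4, 83.4 and 109 CPM). Ano1, a calcium-activated chloride channel, stood at 38.8, 31.5, 91.8 and 96.2 CPM, and Clic1, a chloride intracellular channel protein, at 89.4, 90.7, 240.3 and 240.3. Sgk1, a kinase that regulates ion channels, rose by 1.37 ± 0.17. Kcnk1, a potassium channel of the same family as Kcnk3, rose by 1.34 ± 0.13 from 112 and 101 to 259 and 280.4 CPM, while Kcnk3 was lower. No test of that difference between the 2 genes was made.

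Luminal genes that fell were Itpr1, a calcium release channel (51.7, 62.2, 23.8 and 14.8 CPM; -1.60 ± 0.20, adjusted p = 5.72e-05), and Lrrc8a, a subunit of the volume-regulated anion channel (55.5, 58.7, 22.4 and 27.6 CPM; -1.18 ± 0.16). Prss8, a protease that activates sodium channels, changed by -0.78 ± 0.17, and Slc9a2, a sodium-proton exchanger, by -0.66 ± 0.14. The store-operated calcium entry genes Orai1 (-0.70 ± 0.17) and Stim2 (-0.66 ± 0.22) also fell. Stim2 was lost with DESeq2 (adjusted p = 0.201), without sham 1 (0.291) or without te2 2 (0.142), and Orai1 with DESeq2 (0.077).

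In proximal cells 16 of 102 rose and 8 fell, 15.7% and 7.84%, beside 5.53% and 4.78% of all 10068 genes. Slc9a2, which fell in luminal cells, rose here by 2.23 ± 0.40, at 12, 21.9, 81.9 and 107 CPM (adjusted p = 1.41e-05). The difference between the classes was not tested. Stim1, a calcium sensor, rose from 47.9 and 54.9 to 152 and 159 CPM. Aqp11, a water channel, rose by 1.81 ± 0.44. Pdzk1, a scaffold for transporters that include phosphate carriers, had 0 sham counts and 226 te2 counts, at least 5.21-fold higher against a floor of 3 counts over the group. Atp6v1c2, a proton pump subunit, had 1 and 134 counts, a ratio of 9.27 (exact 95% interval 1.64 to 369), and Oxsr1, a kinase of chloride cotransporters, 2 and 167 (5.78, 1.57 to 48.1).

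Proximal genes that fell were Itpr2 (108, 87.8, 20.1 and 24.2 CPM; -2.07 ± 0.33) and Itpr1 (95.7, 123, 39.1 and 34.4 CPM), both calcium release channels. Scnn1a, the alpha subunit of the epithelial sodium channel, stood at 239, 192, 73.3 and 73.0 CPM (-1.47 ± 0.21, adjusted p = 9.62e-08). Kcnn4, a calcium-activated potassium channel, changed by -0.71 ± 0.21. Calls in proximal cells numbered 24 in all, 10 with DESeq2, 7 without sham 2, 13 without te2 1 and 9 without te2 2. Scnn1a and Itpr2 passed in each of these, but Slc9a2, Stim1, Aqp11, Pdzk1, Atp6v1c2, Oxsr1, Itpr1 and Kcnn4 did not pass without sham 2, which leaves 35 sham cells. Atp6v1c2 was also lost without sham 1 (adjusted p = 0.0741), Oxsr1 (0.172) and Aqp11 (0.0807) without te2 1, and Kcnn4 without any 1 of the 4 libraries.

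In basal cells 10 of 95 rose and 3 fell, 10.5% and 3.16%, beside 4.94% and 2.77% of all 9132 genes. Atp6ap2 had 3 counts in sham and 382 in te2 (ratio 9.15, exact 95% interval 3.11 to 44.6). Clca1, a regulator of chloride channels, had 0 and 98 counts, at least 2.35-fold higher, and Aqp5 had 2 and 168 (6.04, 1.65 to 50.3). Itpr1 stood at 295, 244, 119.7 and 100.2 CPM, and Atp1b3, another beta subunit of the pump, at 786, 659, 366 and 450.1 CPM, so that it fell where Atp1b1 was higher. The 13 calls became 2 with DESeq2, 6 with cells of a single gate, 8 without cells that met the proximal gate, and 8, 5, 3 and 4 without sham 1, sham 2, te2 1 and te2 2. Clca1 was lost without sham 1 (adjusted p = 0.0684) or sham 2 (0.405), and Itpr1 without sham 2 (0.125), te2 2 (0.117) or with DESeq2 (0.0732). The Aqp5 call was lost in 9 of the alternatives run (adjusted p from 0.0588 to 0.42), among them without sham 1, sham 2 or te2 2, and that of Atp1b3 in 10, among them without any 1 of the 4 libraries. The 9 proximal markers summed to 309, 890, 2603 and 2320 CPM by totals in basal cells, and their part in these calls was not tested beyond the settings on gates.

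In fibroblasts 0 of 48 list genes passed edgeR's test, 9 had an unadjusted p under 0.05, and DESeq2 called 0; 2.07% of all genes passed. In macrophages 1 of 29 did, where 3.68% of all genes passed: Atp6v0c, a proton pump subunit, stood at 384, 574, 1415 and 1287 CPM (1.51 ± 0.34, adjusted p = 0.0296). That call was lost without sham 1 (0.0968) or te2 1 (0.0561). Detection in these classes was not tested on simulated data.

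**Figure D4:**
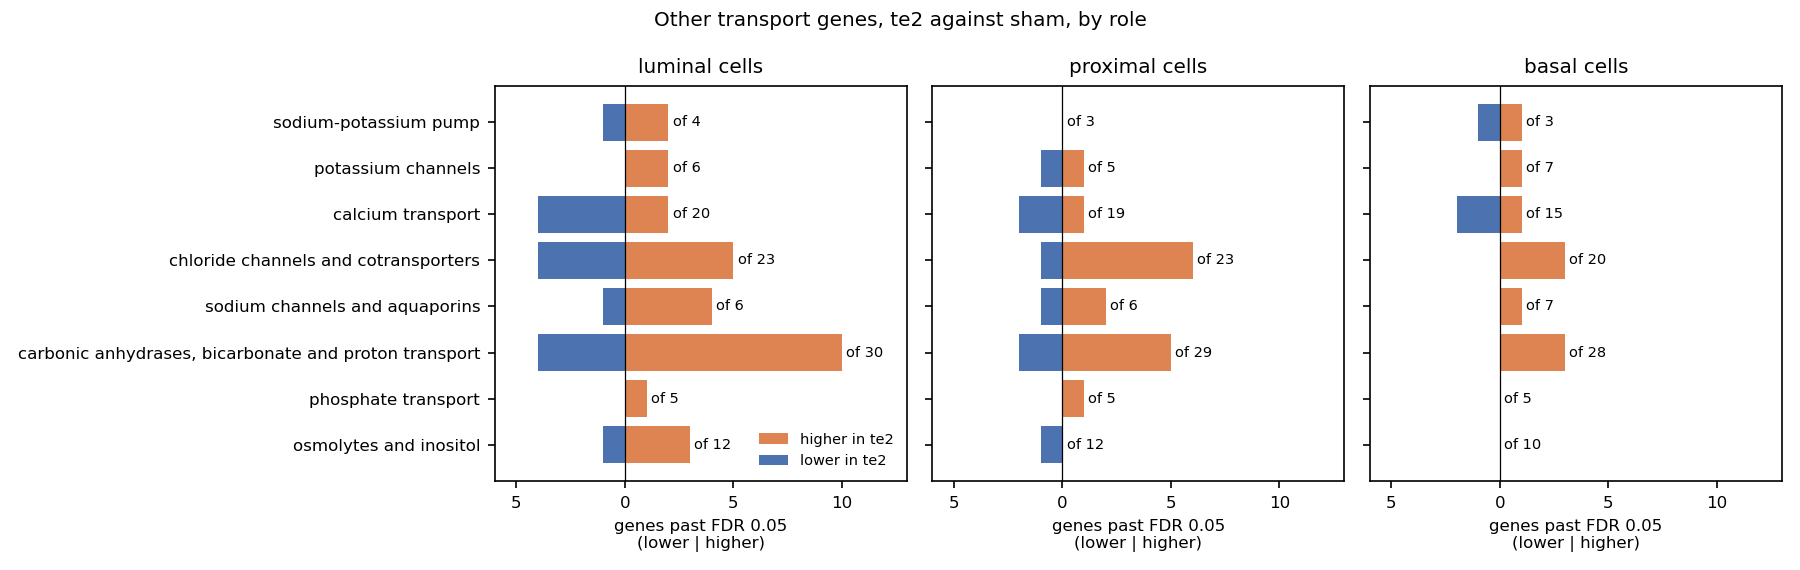
Number of transport genes other than the 8 members that passed FDR 0.05, by role, in luminal, proximal and basal cells; bars to the right are higher in te2, bars to the left lower, and the printed number is how many were measured. The luminal panel holds 29 higher and 15 lower of 106, the proximal panel 16 and 8 of 102, and the basal panel 10 and 3 of 95.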

How the data were processed

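Single-cell counts were measured in 4 libraries, 2 sham and 2 te2, each 1 animal. The values deposited by the authors are raw UMI counts by gene and barcode. Per the submitters' processing notes, which give no roles, the tools included Seurat 5.0.1, R 4.3.2, bustools 0.39.4 and kallisto 0.46.1, and the build was GRCm39. Tables hold genes found in at least 3 cells of a library, and a gene missing from 1 table was taken as 0 there. Depth was 3999690 UMIs (sham 1), 5513275 (sham 2), 12259610 (te2 1) and 13134017 (te2 2).

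For each class the counts of a library's cells were added up and tested with edgeR 4.0.16 (quasi-likelihood test, TMM factors, default low-count filter, two-sided, Benjamini-Hochberg over all genes of a fit, FDR 0.05), 1 fit per class for te2 against sham and 1 joint fit with library as a block for classes. CPM divides by the counts of genes that passed the filter in the class times the TMM factor; cell splits divide by all counts. A standard error is the absolute log2 difference over the square root of F. The smallest two-sided p that exact permutation of 2 against 2 libraries allows is 0.333; edgeR reaches lower values by sharing the estimate of spread among genes. Doublets (112 of 8091 cells, 1.38%, by scrublet in scanpy 1.11.5) were kept and left out as an alternative, as the sensitivity section lists with DESeq2 1.42.0 and the others. The fits were tested on simulated data: of genes changed 4-fold (2 on the log2 scale), 89% were recovered in luminal cells (10666 genes), 52% in basal cells (8555) and 56% in proximal cells (9695); of genes changed 2-fold (1 on the log2 scale), 24%, 6% and 6% were. Of all calls, 4.24%, 1.69% and 6.06% were of unchanged genes. The simulation gave every gene the same spread between libraries and used a single run per fit. These shares therefore need not hold for genes that vary more. Deviations of libraries with equal replicate numbers from their group means correlated at -0.06 to 0.02 over the classes. A weak shared batch could go unseen in these values, so they do not settle whether equal numbers were processed together. The replicate number as a block was therefore run as an alternative.

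The members and lists were chosen with earlier results of these data known. List genes are named by rule: up to 6 higher and 6 lower per class (3 and 3 outside luminal and proximal), of largest log2 difference, past FDR 0.05, mean log2 CPM at least 4, no overlap. Like genes are the 3 of highest r with at least 16 CPM.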

Additional observations from a re-analysis of the deposited data

Results flagged for a closer look

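Some members went in opposite directions in 2 classes, in both libraries of each group, and none of these differences was tested. Atp1b1 differed between te2 and sham by a log2 of 0.47 in luminal cells, 1.14 in basal cells and 1.35 in fibroblasts, and by -0.85 in proximal cells; the gaps to proximal cells were 1.33, 1.99 and 2.21. Slc5a3 differed by 0.51 in basal cells and by -2.74 in luminal cells, a gap of 3.25. Slc12a2 differed by 0.28 in proximal and 0.33 in basal cells, and by -0.36 in luminal cells, -0.56 in fibroblasts and -2.29 in macrophages. Its gaps from proximal cells were 0.64, 0.84 and 2.57, and those from basal cells 0.69, 0.89 and 2.62. The basal Slc12a2 value changes sign with the gate, so its 3 gaps rest on basal cells that also met the proximal gate. Luminal RNA would bring 63.8 and 29.7 of the 92 and 52 sham Slc12a2 counts in fibroblasts. In te2 it would bring 6.5 and 11.4 of 65 and 101. Its part in the fibroblast, macrophage and basal gaps of Slc12a2 was not tested.

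Cells that met no gate were in no comparison. In them Fxyd4 stood at 19.1 and 6.40 CPM in sham and at 329 and 346 in te2, a te2 mean of 337 against 12.7 in sham.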

How the results depend on the processing

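Alternatives changed 1 choice at a time; those on gates (cells of a single gate, and basal cells that met the proximal gate left out) were added after the data were seen. Of the 133 alternative counts, 109 stayed within 1.5 times. List calls became 28 in luminal, 2 in basal and 10 in proximal cells with DESeq2, 6 in basal cells with a single gate and 8 without those that met the proximal gate, 4 in fibroblasts and 5 in macrophages with no filter on low counts, and 2 in macrophages without doublets. Leaving out 1 library gave 32 to 45 list calls in luminal, 3 to 8 in basal, 0 to 4 in fibroblast, 0 to 3 in macrophage and 7 to 20 in proximal cells, and 4 to 6, 2 to 3, 2 to 2, 2 to 4 and 5 to 7 members in the class contrasts. A lone library of a group was assumed to vary like the other group.

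With the replicate number as a block, list calls were 42, 7, 0, 0 and 16 in luminal, basal, fibroblast, macrophage and proximal cells. Reversed values were Slc12a2 in basal cells (-0.78 with a single gate, -1.17 without cells meeting the proximal gate), Slc5a3 in proximal cells (0.0223 with at least 1000 UMIs per cell) and Slc34a2 in luminal against other cells (-1.90, adjusted p = 0.0153, with DESeq2; 0.58 and 0.696 with edgeR). Of 257 member differences from sham, 243 moved by no more than 1 SD, the larger of the 2 groups' SDs of log2(CPM + 1) over libraries. That is a loose measure where a library holds 0 counts. Basal Fxyd4 counted as unmoved at 3.66 with a single gate and at 3.20 without cells meeting the proximal gate, against 5.11. The setting of 1000 UMIs per cell was not run in basal cells, macrophages and the joint fit, where a library held fewer than 20 cells. Depth was low in sham classes other than luminal: sham basal, fibroblast, macrophage and proximal cells had medians of 785 to 1849 UMIs.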
